A study of Mus musculus with 13 samples.

Results

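The proteins that coat lipid droplets and the proteins that help droplets form at the endoplasmic reticulum (ER) were followed through 10 genes: the perilipins *Plin1*, *Plin2*, *Plin3*, *Plin4* and *Plin5*, the fusion protein gene *Cidec*, the seipin gene *Bscl2*, the FIT family genes *Fitm1* and *Fitm2*, and *Hilpda*. The genes were chosen by name for their known roles, and all 10 were found among the 33618 genes counted. RNA came from whole parametrial white adipose tissue (pmWAT) of female mice, 7 labelled *Lmna* fl/fl (both *Lmna* alleles carry loxP sites around exons 10 and 11, no Cre) and 6 labelled *Lmna* iADKO (the same floxed alleles plus a tamoxifen-inducible Cre, Adipoq-CreERT2, expressed in adipocytes). Every mouse in both groups received tamoxifen at 50 mg/kg for 5 days at 12 to 14 weeks of age, and tissue was taken 2 weeks after tamoxifen. The Cre was carried by the iADKO mice alone, so effects of Cre and of the deletion cannot be told apart, and recombination is restricted to adipocytes while RNA was made from all cells of the depot.

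An adipocyte stores triglyceride in a droplet bounded by a single layer of phospholipid. Droplets bud from the ER, where seipin organizes the budding site and the FIT proteins act on ER lipids so that neutral lipid can leave the membrane. Once formed, the droplet is covered by perilipins, which control access of lipases, and CIDEC joins droplets into the single large droplet of a white adipocyte. PLIN1 is the main coat protein of fat cells, whereas PLIN2 and PLIN3 are found on droplets of many cell types, including macrophages that take up lipid. Loss of seipin, PLIN1 or CIDEC function causes lipodystrophy in people, the class of disease to which lamin A/C variants also belong.

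Libraries held 18854223 to 19776491 counts each. Every level below is of RNA, and no protein values were used. Levels are given as CPM, read counts scaled to a common library size after TMM correction for composition, with means ± SD over the 7 fl/fl and the 6 iADKO mice, and differences as log2 fold changes of iADKO over fl/fl with their standard errors (SE). Adjusted p values are from edgeR's quasi-likelihood test with Benjamini-Hochberg adjustment over the 16753 genes with enough counts, with a threshold of 0.05. *Lmna* itself averaged 84.7 ± 7.51 CPM in the 7 fl/fl mice, against 96.7 ± 11.5 CPM in the 6 iADKO mice (log2 fold change 0.19, SE 0.08, edgeR adjusted p = 0.0785). The gene count includes exons outside the floxed part and RNA of cells without Cre, so it does not check the deletion, and every direction rests on the labels. All 10 adipocyte markers were lower in the libraries labelled iADKO (median log2 fold change -0.75), and their summed level overlapped, at 21032 to 33205 CPM in fl/fl and 13639 to 21791 CPM in iADKO. Of 9 macrophage markers 8 were higher (summed level 1353 to 2613 CPM in fl/fl and 1861 to 3176 CPM in iADKO). Libraries fl/fl 5 and iADKO 6 stood apart from their groups in both lists, fl/fl 5 with the fewest adipocyte and the most macrophage transcripts of the fl/fl libraries and iADKO 6 the reverse. In whole tissue, fewer cells of a type and less RNA per cell cannot be told apart.

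The promoters of *Plin2*, which was higher in iADKO, and of *Plin1* and *Plin4*, which were lower, are shown because these genes carry the contrast described here. Each is the 250 bases before the start of the canonical transcript (GRCm39, GENCODE vM39), written 5′ to 3′ on the gene's strand, and none of the 3 windows overlaps an annotated exon. Capitals mark matches on either strand to the nuclear receptor hexamer AGGTCA, to its direct repeat with 1 base between (DR1, AGGTCANAGGTCA, the form bound by PPAR and RXR) with at most 2 letters changed, or to the cores ACGTG and GCGTG bound by hypoxia-inducible factors.
Plin2, chr4:86588460-86588709, minus strand: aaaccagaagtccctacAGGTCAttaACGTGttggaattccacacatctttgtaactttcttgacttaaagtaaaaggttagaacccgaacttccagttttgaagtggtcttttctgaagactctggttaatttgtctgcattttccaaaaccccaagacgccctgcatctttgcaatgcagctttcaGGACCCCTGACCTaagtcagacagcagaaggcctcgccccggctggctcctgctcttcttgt
Plin1, chr7:79382719-79382968, minus strand: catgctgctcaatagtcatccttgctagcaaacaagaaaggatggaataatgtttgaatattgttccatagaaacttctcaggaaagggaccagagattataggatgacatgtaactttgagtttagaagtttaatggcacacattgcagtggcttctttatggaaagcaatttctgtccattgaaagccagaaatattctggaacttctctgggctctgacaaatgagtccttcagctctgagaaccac
Plin4, chr17:56416932-56417181, minus strand: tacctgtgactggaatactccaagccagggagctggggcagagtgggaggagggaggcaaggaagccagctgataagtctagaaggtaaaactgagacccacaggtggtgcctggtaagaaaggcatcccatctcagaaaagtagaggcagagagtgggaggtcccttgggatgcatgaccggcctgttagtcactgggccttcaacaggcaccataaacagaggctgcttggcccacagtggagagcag
The *Plin2* window held 2 hexamers, 233 to 228 and 55 to 50 bases before the start, the second on the opposite strand and inside a DR1 with 2 letters changed that spans 62 to 50. It also held 1 core, ACGTG, 224 to 220 bases before the start. The other 2 windows held none of these letters, which says nothing about other stretches of those genes. Among 14134 promoters of the same length, 11.6% held a hexamer, 50.7% a hypoxia core, 0.0354% an exact DR1 and 2.53% a DR1 with at most 2 letters changed; the last search was added after the sequences had been seen, and the DR1 and the hexamer overlap. *Plin5* held a hexamer and a GCGTG, *Fitm2* held a CACGC, the opposite strand of GCGTG, and the windows of *Plin3*, *Bscl2*, *Fitm1* and *Hilpda* held none. The *Bscl2* and *Fitm2* windows lay wholly in annotated exons, as did 67 bases of the *Plin5* window. Those of *Bscl2* and *Plin3* lay inside the annotated gene, downstream of its outermost start.

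Of the 10 genes, 9 had enough counts to test. In the libraries labelled iADKO 5 were lower (*Cidec*, *Plin4*, *Plin1*, *Fitm2* and *Bscl2*), 1 was higher (*Plin2*) and 3 did not pass the threshold (*Plin3*, *Plin5* and *Hilpda*). Across all genes tested, 30.5% were called in either direction, 16.3% lower and 14.1% higher. The median log2 fold change of the 9 genes was -0.61, beside 0.03 over all genes. The groups did not overlap at 3 of them, *Cidec*, *Plin4* and *Plin2*, beside 6.64% of all genes. With the mean of the macrophage markers as a covariate, 0 of the 9 passed by edgeR, and 265 genes passed in all, beside 5104 without it. The log2 fold change of *Plin2* was 0.54 with and without the covariate (edgeR adjusted p = 0.133 with it). Those of *Plin1* (-0.37), *Plin4* (-0.61), *Bscl2* (-0.31) and *Fitm2* (-0.27) were closer to 0 with the covariate than without it. The covariate itself differed between the groups, so it cannot be separated from genotype.

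**Figure D1:**
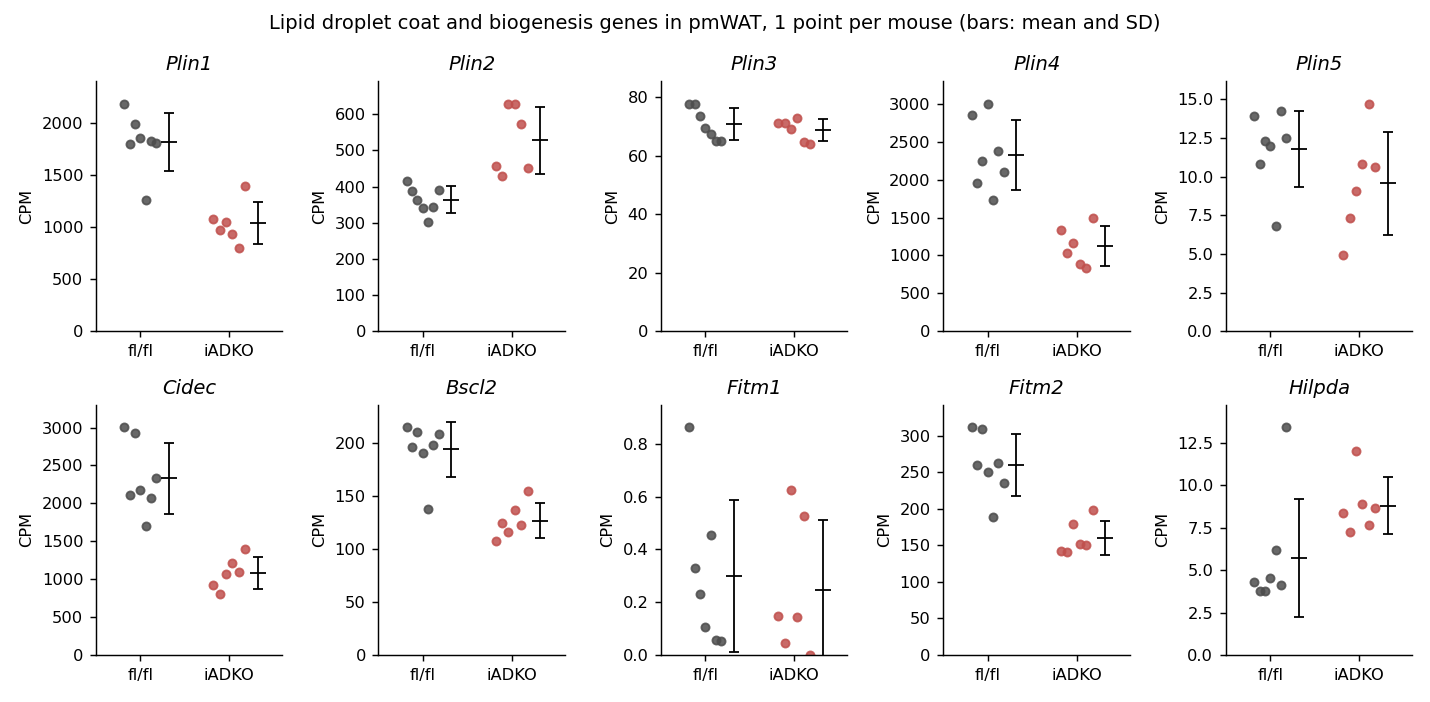
CPM (vertical axes, from 0) of the 10 genes in each mouse, fl/fl in grey and iADKO in red, with bars for the mean and SD. *Plin4* and *Cidec* were lower in all 6 iADKO mice than in any fl/fl mouse and *Plin2* was higher in all 6, while *Plin3* lay between 64.0 and 77.8 CPM throughout.

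Among the coat protein genes, *Plin1*, whose protein gates lipolysis on the adipocyte droplet, fell in RNA level. Its gene (ENSMUSG00000030546, chr7:79369966-79382718, minus strand) was at a lowest 1261, median 1823 and highest 2184 CPM in fl/fl, and at 795, 1011 and 1397 CPM in iADKO. The groups overlapped at a single point, since fl/fl 5 was below iADKO 6. Mean levels of 1816 ± 282 CPM for fl/fl against 1038 ± 202 CPM for iADKO gave a log2 fold change of -0.81 (SE 0.14, edgeR adjusted p = 0.0011). Without fl/fl 5 and iADKO 6 the value was -1.003 (edgeR adjusted p = 1.8e-06). These libraries were chosen after the data were seen. They are the lowest fl/fl and the highest iADKO library here, so their removal had to widen the difference.

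*Plin4*, the gene of a perilipin abundant in white adipocytes that coats small nascent droplets, also fell. It (ENSMUSG00000002831, chr17:56406617-56416931, minus strand) ranged from 1735 over a median of 2249 to 3002 CPM in fl/fl and from 830 over 1100 to 1498 CPM in iADKO. Every iADKO mouse was below every fl/fl mouse, with a log2 fold change of -1.04 (SE 0.16, edgeR adjusted p = 6.9e-04). Of the exonic bases of *Plin4*, 39.1% are also exonic in *Hdgfl2* on the other strand, and the strand setting of the counting is not given in the sources used here, so reads of the pair may not have been separated. *Hdgfl2* was at 25.3 ± 1.68 CPM in fl/fl and 30.8 ± 1.77 CPM in iADKO, far below *Plin4* and in the other direction.

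*Plin2*, the gene of the perilipin of small droplets in most cell types, rose. Its values (ENSMUSG00000028494, chr4:86565912-86588459, minus strand) were 303, 364 and 416 CPM as lowest, median and highest in fl/fl, and 430, 515 and 629 CPM in iADKO. All 6 iADKO mice were above all 7 fl/fl mice, and the means of 364 ± 37.9 and 528 ± 92.8 CPM gave a log2 fold change of 0.54 (SE 0.11, edgeR adjusted p = 0.0027). The iADKO values were spread more widely than those of fl/fl, with iADKO 3, 4 and 5 from 573 to 629 CPM and iADKO 1, 2 and 6 from 430 to 456 CPM. The size of the rise differed between number series, sets of libraries with neighbouring numbers in their names, which the labels do not call batches. It was 0.75 within series b (2 fl/fl, 2 iADKO, edgeR adjusted p = 0.945) and 0.18 within series c (3 fl/fl, 2 iADKO, edgeR adjusted p = 0.186). *Plin2* passed in neither series, and within series b 0 of all genes passed. With the series as a block the value was 0.44 (edgeR adjusted p = 0.0525). Series a held fl/fl mice alone, and series d (iADKO 3 and 5) held iADKO mice alone. In both, series and genotype cannot be told apart.

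*Plin3*, a perilipin of the cytosol and of newly formed droplets in most cells, was close between groups. It (ENSMUSG00000024197, chr17:56584218-56599873, minus strand) was at 70.8 ± 5.52 CPM in fl/fl and 68.8 ± 3.62 CPM in iADKO. The log2 fold change was -0.04, with a 95% interval of -0.15 to 0.07 (edgeR adjusted p = 0.604).

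*Plin5*, the perilipin of oxidative tissues that ties droplets to mitochondria, was low. It (ENSMUSG00000011305, chr17:56418446-56424610, minus strand, next to *Plin4*) was at 6.83 to 14.2 CPM in fl/fl (median 12.3) and at 4.96 to 14.7 CPM in iADKO (median 9.83). The highest and the lowest of all 13 values were both iADKO libraries. Its log2 fold change of -0.30 (SE 0.22, edgeR adjusted p = 0.314) did not pass, and it was 0.19 within series b and -1.01 within series c (edgeR adjusted p = 0.0084).

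**Figure D2:**
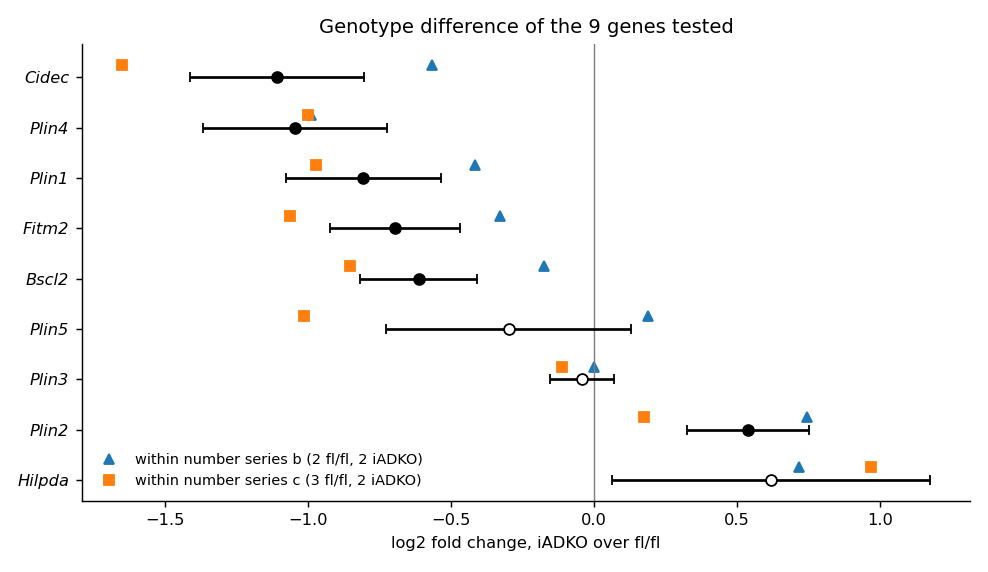
Log2 fold change of iADKO over fl/fl (horizontal axis) for the 9 genes tested, as circles with 95% intervals, filled where the edgeR adjusted p was under 0.05. Triangles and squares give the value within number series b and c, which for *Cidec* were -0.57 and -1.65.

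*Cidec*, whose protein moves lipid between droplets in contact so that they merge, fell, with the lowest log2 fold change of the 9 genes tested. Its values (ENSMUSG00000030278, chr6:113400691-113412721, minus strand) were 1699, 2175 and 3001 CPM as lowest, median and highest in fl/fl and 798, 1079 and 1395 CPM in iADKO. No iADKO mouse reached the lowest fl/fl mouse, and the means were 2330 ± 473 and 1082 ± 211 CPM. The log2 fold change was -1.11 (SE 0.15, edgeR adjusted p = 3.9e-04). With the macrophage marker mean as a covariate it was -0.71 (edgeR adjusted p = 0.0584).

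At the ER, *Bscl2* (seipin, which gathers triglyceride at the site of droplet budding) was lower in iADKO. It (ENSMUSG00000071657, chr19:8814810-8826051, plus strand) ranged from 138 over a median of 198 to 214 CPM in fl/fl and from 107 over 123 to 155 CPM in iADKO. The groups overlapped because fl/fl 5, at 138 CPM, lay below iADKO 6, at 155 CPM. The log2 fold change was -0.61 (SE 0.10, edgeR adjusted p = 0.0011), and *Gng3* on the other strand, which shares 16.3% of the exonic bases, was at 1.105 CPM in fl/fl and 0.587 CPM in iADKO.

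*Fitm2*, the gene of the FIT protein of adipose and most other tissues, was also lower. Its values (ENSMUSG00000048486, chr2:163308228-163314576, minus strand) were 189, 259 and 311 CPM as lowest, median and highest in fl/fl and 140, 151 and 198 CPM in iADKO. Here too the overlap was fl/fl 5 below iADKO 6, and the log2 fold change was -0.69 (SE 0.12, edgeR adjusted p = 9.4e-04).

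*Fitm1*, the FIT protein of skeletal muscle and heart, was near the limit of detection and was not tested. It (ENSMUSG00000022215, chr14:55812992-55814411, plus strand) had 1 to 15 counts a library in fl/fl (median 4) and 0 to 13 in iADKO (median 3). The 0 was iADKO 6 and allows up to 3 counts, or 0.147 CPM, for counting error alone. Over the 13 libraries *Fitm1* was high where 6 skeletal muscle markers were high (log2 CPM, Pearson r = 0.790, permutation p = 0.0021, adjusted 0.0148 over 7 relations; Spearman rho = 0.753, permutation p = 0.0041, adjusted 0.0290). Without the 2 libraries farthest from the median of the muscle markers r was 0.701, and each number series held at most 5 libraries, too few for a value within it. The summed muscle markers ranged from 13.3 CPM in iADKO 4 to 378 CPM in fl/fl 5, and 0 of the 6 passed the genotype test by edgeR.

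**Figure D3:**
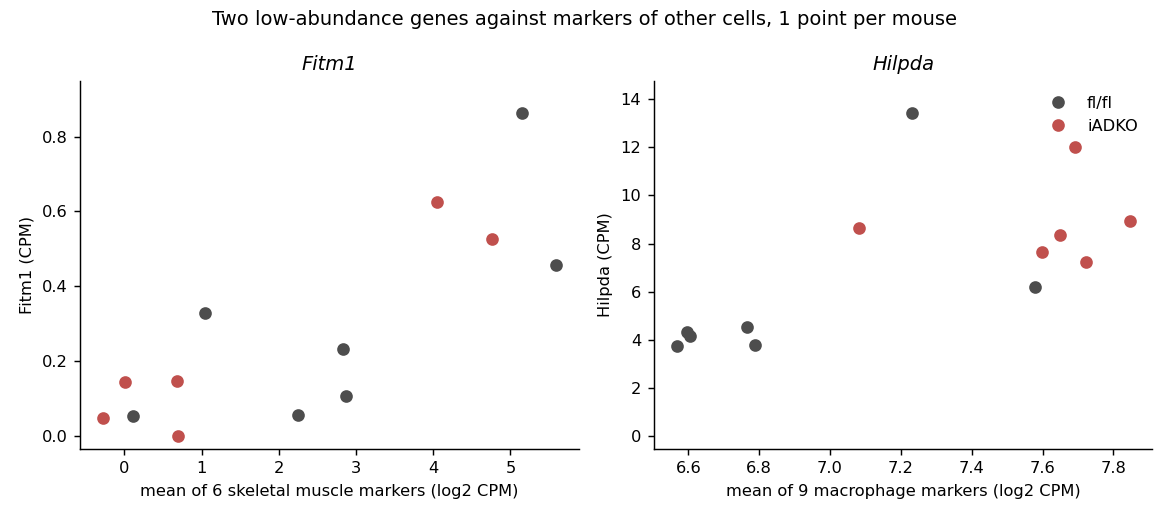
CPM of *Fitm1* (left) and *Hilpda* (right) in each mouse against the mean log2 CPM of 6 skeletal muscle or 9 macrophage markers, fl/fl in grey and iADKO in red. The 4 libraries with the highest muscle markers held the 4 highest *Fitm1* values, and the *Hilpda* value of 13.4 CPM is fl/fl 7.

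*Hilpda*, a small hypoxia-inducible protein that inhibits the lipase ATGL, was low and did not pass. It (ENSMUSG00000043421, chr6:29272409-29276301, plus strand) was at 3.76, 4.31 and 13.4 CPM as lowest, median and highest in fl/fl and at 7.23, 8.51 and 12.0 CPM in iADKO. All 6 iADKO libraries were above 6 of the 7 fl/fl libraries, and fl/fl 7 was above them all. The log2 fold change was 0.62 (SE 0.28, edgeR adjusted p = 0.112), and 0.98 without fl/fl 7 (edgeR adjusted p = 9.6e-04), so that 1 library decided the call. In fl/fl, the libraries with the most macrophage transcripts were fl/fl 5 and fl/fl 7 (summed markers 2613 and 1959 CPM). They were also the highest for *Hilpda*, but in the other order, at 6.17 and 13.4 CPM. With the macrophage marker mean as a covariate the log2 fold change was 0.01 (edgeR adjusted p = 0.993). That mean differed between the groups, so it cannot be separated from genotype, and the cause was not tested.

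Per kilobase of exonic sequence (union of annotated exons), *Cidec* was the most abundant of the 10 in fl/fl, at 754 ± 153 CPM per kb, followed by *Plin4* at 291 ± 57.7 and *Plin1* at 286 ± 44.3, which did not differ beyond their spread. *Fitm2* (61.0), *Plin2* (47.3), *Bscl2* (28.6), *Plin3* (9.71), *Plin5* (3.85), *Hilpda* (2.79) and *Fitm1* (0.284) followed in CPM per kb. In iADKO *Plin2*, at 68.7 ± 12.1 CPM per kb, stood above *Fitm2*, at 37.7 ± 5.42, while *Hilpda* (4.29 ± 0.828) and *Plin5* (3.13 ± 1.09) lay within their spread of each other. This order depended on the length used. Per kilobase of the canonical transcript, *Plin1* (605) stood above *Plin4* (312) in fl/fl, *Plin2* (177) was already above *Fitm2* (65.4) in fl/fl, and *Bscl2* (90.6) was above *Fitm2* too, while *Cidec* (814) was again the most abundant, all in CPM per kb.

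The 5 perilipins summed to 637 ± 97.8 CPM per kb in fl/fl and 386 ± 57.3 CPM per kb in iADKO. *Plin2* made up 7.52% ± 0.929 of that sum in fl/fl and 18.3% ± 4.67 in iADKO, higher in all 6 iADKO mice. *Plin4* made up 45.5% ± 3.48 and 36.3% ± 3.69, lower in all 6, and *Plin1* 44.8% ± 2.78 and 42.2% ± 2.31, which overlapped. With the length of the canonical transcript in place of the union of exons, *Plin2* made up 16.0% in fl/fl and 33.5% in iADKO and *Plin4* 27.8% and 19.3%, so the order of *Plin2* and *Plin4* in iADKO depended on the length used and the direction of each did not.

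**Figure D4:**
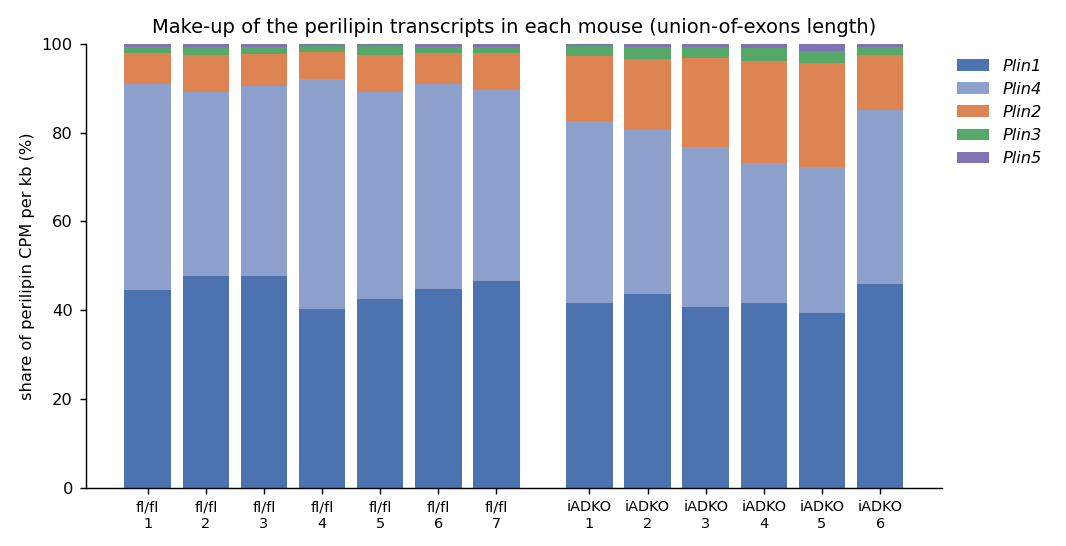
Share of each perilipin in the summed CPM per kb (vertical axis, percent) in every library, by group and replicate. The *Plin2* share was 6.11% to 8.53% in fl/fl and 12.3% to 23.5% in iADKO.

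The ratio of *Plin2* to *Plin1* needs no gene length for a comparison between mice. On the log2 scale it was between -2.45 and -2.05 in fl/fl and between -1.63 and -0.47 in iADKO, higher in 6 of 6 iADKO mice than in any fl/fl mouse. The difference of 1.34 had an exact permutation p of 0.00117 (two-sided), the smallest that 7 against 6 can give. *Plin2* and *Plin1* alone differed in opposite directions in these same libraries (exact permutation p = 0.00117 and 0.00233). The ratio combines them, so its p is not support beyond theirs. The ratio difference was 1.14 within series b and 1.14 within series c, but the parts of the genes differed. The log2 fold changes of *Plin2* and *Plin1* were 0.75 and -0.41 within series b, and 0.18 and -0.97 within series c. Without fl/fl 5 and iADKO 6 the difference was 1.51 (exact permutation p = 0.0043). These libraries were chosen after the data were seen. They lie nearest the other group, so their removal had to widen the difference.

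Set against the mean of the 10 adipocyte markers in the same library, *Plin1* was 0.55 ± 0.03 log2 units above it in fl/fl and 0.58 ± 0.05 above it in iADKO, a difference of 0.03. The corresponding differences were 0.15 for *Fitm2*, 0.23 for *Bscl2*, -0.22 for *Plin4* and -0.27 for *Cidec*. For *Plin2* the difference was 1.36, with no overlap, from -1.76 ± 0.16 in fl/fl to -0.39 ± 0.41 in iADKO. It was 1.58 for *Hilpda*, 0.80 for *Plin3* and 0.50 for *Plin5*, each with overlap, so *Plin2* was not alone in standing higher relative to these markers. The marker mean itself differed by -0.84 log2 units (iADKO minus fl/fl). A gene with the same level in both groups would therefore stand higher against it by about that much. *Plin1* followed the markers within each genotype (Pearson r = 0.993 over 7 fl/fl and 0.988 over 6 iADKO libraries, exact permutation p = 0.0067 and 0.0056, adjusted 0.0157 for both; Spearman rho = 0.75 and 0.943, exact permutation p = 0.0663 and 0.0167, adjusted 0.154 and 0.0583). Without the 2 farthest libraries r was 0.873 and 0.962. *Plin2* against the macrophage markers gave r = -0.503 over fl/fl and 0.465 over iADKO libraries (exact permutation p = 0.289 and 0.408, adjusted 0.405 and 0.476; rho = -0.321 and 0.371, p = 0.498 and 0.497, adjusted 0.581 for both; r = -0.131 and -0.339 without the 2 farthest). *Hilpda* against the same markers gave r = 0.681 and 0.0648 (exact permutation p = 0.237 and 0.983, adjusted 0.405 and 0.983; rho = 0.714 and 0.143, p = 0.0881 and 0.803, adjusted 0.154 and 0.803; r = 0.133 and 0.204 without the 2 farthest).

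**Figure D5:**
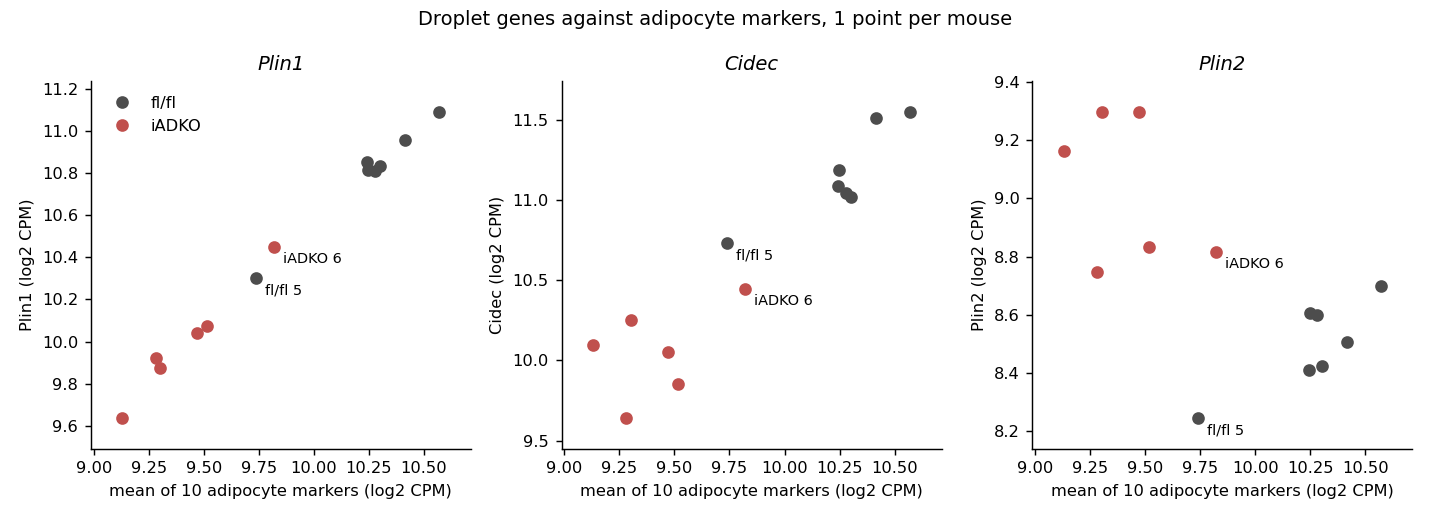
Log2 CPM of *Plin1*, *Cidec* and *Plin2* (vertical axes) against the mean log2 CPM of the 10 adipocyte markers (horizontal axes), 1 point per mouse, fl/fl in grey and iADKO in red. For *Plin1* both genotypes lie along 1 line, with fl/fl 5 and iADKO 6 next to each other at marker means of 9.74 and 9.82, while for *Plin2* all iADKO points lie above the fl/fl points.

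Of 10 genes of lipolysis at the droplet surface and its control, 8 were lower and 0 higher (median log2 fold change -0.82). The lowest were *Adrb3*, the beta-adrenergic receptor of fat cells (-1.14, SE 0.25, edgeR adjusted p = 0.0047), and *Pnpla2*, the lipase ATGL (-0.999, SE 0.15, edgeR adjusted p = 6.4e-04). The highest were *Abhd5*, the ATGL coactivator that PLIN1 holds (-0.18, edgeR adjusted p = 0.233), and *G0s2*, an ATGL inhibitor (-0.45, edgeR adjusted p = 0.0052). With the macrophage covariate 0 of these 10 were lower.

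Of 21 genes of droplet biogenesis and triglyceride assembly at the ER, 11 were lower and 1 was higher (median -0.21), and 2 were lower with the macrophage covariate. *Agpat2*, an acyltransferase of phosphatidic acid synthesis (-1.31, SE 0.17, edgeR adjusted p = 3.1e-04), and *Dgat2*, which makes triglyceride (-1.31, SE 0.16, edgeR adjusted p = 2.6e-04), were lowest. *Spart*, spartin (0.22, edgeR adjusted p = 0.0138), and *Spast*, spastin (0.14, edgeR adjusted p = 0.0686), were highest. *Ldaf1*, the seipin partner, was at 44.0 ± 3.06 CPM in fl/fl and 41.3 ± 5.32 CPM in iADKO, with a log2 fold change of -0.09 (edgeR adjusted p = 0.382) beside -0.61 for *Bscl2*.

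Of 14 genes of other droplet proteins tested, 5 were lower and 2 higher (median -0.34). *Nsdhl*, a sterol enzyme found on droplets, was lowest (-1.29, SE 0.22, edgeR adjusted p = 0.0012), and *Cidea*, the CIDE protein of brown fat, was next without passing (-1.15, SE 0.47, edgeR adjusted p = 0.0800). *Lpcat2* (0.53, edgeR adjusted p = 0.221) and *Lpcat1* (0.33, edgeR adjusted p = 0.0293), which remake droplet phospholipid, were highest. Of 8 PPAR and C/EBP regulators, known to act on many of these promoters, 5 were lower and 0 higher (median -0.40). *Ppara* (-0.81, edgeR adjusted p = 0.0165) and *Cebpa* (-0.75, edgeR adjusted p = 7.9e-04) were lowest, and *Ppargc1b* (-0.26, edgeR adjusted p = 0.174) and *Cebpb* (-0.03, edgeR adjusted p = 0.841) highest. *Cebpa* and *Pparg* also stand in the adipocyte marker list.

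Of 12 known targets of hypoxia-inducible factors, a group to which *Hilpda* and *Plin2* are often added, 4 were lower and 1 higher (median -0.17). *Pdk1* (-1.04, edgeR adjusted p = 3.0e-04) and *Vegfa* (-0.86, edgeR adjusted p = 6.7e-04) were lowest, and *Ankrd37* (0.52, edgeR adjusted p = 0.321) and *Slc2a1* (0.45, edgeR adjusted p = 0.0055) highest.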

How the data were processed

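RNA from powdered frozen pmWAT was made into strand-specific mRNA libraries (DNBSEQ, BGI). Per the labels, the authors used FastQC 0.12.1, STAR 2.7.11a, the mm39 genome and DESeq2. The counting tool, its strand setting and its annotation are not given in the sources used here. The authors deposited raw read counts for 33618 genes, and a table of regularized log2 values from DESeq2. Symbols and lengths came from GENCODE vM39, where 33184 IDs were found.

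Counts were tested with edgeR 4.0.16 (filterByExpr, TMM, robust quasi-likelihood, genotype as the only term, all 13 libraries) in R 4.3.3, with limma 3.58.1 on the deposited log2 values and DESeq2 1.42.0 as alternatives. The fits were tested on simulated data: edgeR recovered the sizes and directions put in, but called fewer of the changed genes than first required, and that requirement was then replaced by one on calibration. DESeq2 made more false calls there than its threshold allows, and its calls are used here only as an alternative. The simulated counts used dispersions estimated by edgeR and far fewer changed genes than were called here. They therefore do not rank the tools for these data. Log2 CPM used a prior count of 2. Each library is 1 mouse. The labels give 1 batch for all libraries, and number series were read from library names. No 2 libraries agreed within sampling noise. The 10 genes and all lists were chosen with earlier results of these data known. The text names the 10 genes, *Lmna*, and per list the 2 genes with the lowest and the 2 with the highest log2 fold change. *Ldaf1*, *Hdgfl2* and *Gng3* were named outside that rule, after their values were seen. Marker lists were adipocyte, macrophage, lipid-associated macrophage, T and B cell, endothelial, progenitor, mesothelial, brown adipocyte, skeletal muscle and epithelial genes. The promoter window of 1 of the 10 genes is not reported here.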

Additional observations from a re-analysis of the deposited data

Results flagged for a closer look

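The highest and lowest library of each group was compared with its neighbours by Dixon's test at the 95% level, in 22 groups of values, and chance flags about 1 in 20. For *Plin1* and *Bscl2*, fl/fl 5 was far below the other fl/fl libraries, at 1261 and 138 CPM. That library also had the lowest adipocyte markers of the fl/fl group (summed level 21032 CPM) and the highest macrophage markers (2613 CPM). For *Hilpda*, fl/fl 7 was far above the other fl/fl libraries at 13.4 CPM, and iADKO 3 was far above the other iADKO libraries at 12.0 CPM. The part of the marker levels in these values was not tested.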

How the results depend on the processing

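Calls for the members were recomputed under 25 alternatives. The removal of fl/fl 5 together with iADKO 6, and the canonical transcript length for levels per kb, were chosen after seeing the data. The count of 5 lower members was 0 with the macrophage marker mean as a covariate, 0 within series b, where 0 of all genes passed by edgeR, and 6 within series c, where *Plin5* joined. The count of 1 higher member was 0 with the number series as a block, 0 with the macrophage covariate and 0 within series b, and 2 without fl/fl 7 and in the replicate block, where *Hilpda* joined *Plin2*. The *Plin2* log2 fold change itself was 0.44 with the series block, 0.54 with the covariate and 0.75 within series b, beside 0.54. Within series c the 1 higher member was *Hilpda*. All genes called numbered 5104, and 1986 with the number series as a block, 265 with the macrophage covariate and 0 within series b. The lower genes of droplet-surface lipolysis were 0 with the macrophage covariate and 0 within series b, and those of ER biogenesis 2 and 0. Leaving out 1 library at a time gave 5 lower members each time, 1 to 2 higher members, 3998 to 6604 genes in all, 8 to 10 lower lipolysis genes, 10 to 12 lower ER genes and a *Plin2* to *Plin1* difference of 1.24 to 1.47. That difference kept its direction under all 18 alternatives run, which did not include the number series as a block or the macrophage covariate. Directions turned for *Plin3* (0.0011 within series b) and *Plin5* (0.15 with the macrophage covariate, 0.19 within series b). The causes were not tested. With the canonical length the *Plin2* and *Plin4* shares in iADKO were 33.5% and 19.3%. The labels number the mice in both groups. Correlations of same-numbered deviations were over 0.1 in 3 of 6 pairs (mean 0.107, and -0.02 for other pairs), which does not decide whether the numbers pair the mice. In the replicate block, which left out fl/fl 7, 5 members were lower, 2 higher, 4833 genes passed, and the ratio difference was 1.35 (exact permutation p = 0.0312, the smallest 6 pairs can give).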

Other observations

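Over the 13 libraries, the genes whose log2 CPM was most like each droplet gene (Pearson r, a description over libraries that share the genotype difference) were these, with r of deviations from the group means second. *Abcd2*, a peroxisomal transporter, was most like *Plin1* (0.991, 0.969), followed by *Ywhab* (0.989, 0.958) and *Cebpa* (0.988, 0.952). *Cat*, catalase, was most like *Cidec* (0.988, 0.954), *Cd1d1* most like *Plin4* (0.981, 0.931), *Mcat* most like *Bscl2* (0.982, 0.935) and *Cd99l2* most like *Fitm2* (0.990, 0.962). *Plin2* was most like *Nifk*, a nucleolar protein gene (0.922, 0.750). *Plin5* was most like *Elovl3*, an elongase of brown fat (0.946, 0.957), *Plin3* most like *Nid2*, a basement membrane gene (0.916, 0.922), and *Hilpda* most like *Srgn*, the proteoglycan of immune cell granules (0.940, 0.911).

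Among the other marker lists, 3 of 6 lipid-associated macrophage and 3 of 8 T and B cell genes were higher in iADKO and none of either was lower. Of 5 endothelial genes 2 were lower, of 5 brown adipocyte genes 2 were lower, of 4 epithelial genes 2 were higher, and 0 of 5 progenitor, 0 of 5 mesothelial and 0 of 6 skeletal muscle genes passed by edgeR.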
